A study of Homo sapiens with 6 samples.

Results

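The genes of cholesterol and fatty acid synthesis examined here were 32 genes listed by name, out of 22437 genes that could be named on the array. They comprised 7 enzymes of the mevalonate pathway and 11 enzymes that make squalene and lead from it to cholesterol. The others were 5 genes of the sterol-sensing SREBP system, 3 sterol transport genes and 6 genes of fatty acid synthesis and desaturation. Each gene was found through the RefSeq accession of its probes and was read from the probe with the highest mean signal. All 32 were measured, and each was well above background on every array on which its probe had a value. Expression was profiled in AGS, a human gastric adenocarcinoma cell line, 48 h after transfection with a nontargeting siRNA (si-Control, 3 samples) or with 1 siRNA against C1GALT1 (si-C1GALT1-3, 3 samples). C1GALT1 is the galactosyltransferase that builds the core 1 structure of mucin-type O-glycans. A single siRNA sequence was used on these arrays, so effects of this sequence and of C1GALT1 loss cannot be told apart. The comparison asked whether the lipid synthesis genes differed in level between the 2 groups.

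Cells make cholesterol from acetyl-CoA through mevalonate, isoprenoid intermediates, squalene and lanosterol. When membrane sterol is low, the escort protein SCAP carries the SREBP transcription factors from the endoplasmic reticulum to the Golgi, where they are cut and released to activate synthesis genes. When sterol is plentiful, INSIG proteins hold SCAP back, and the nuclear receptors called LXR activate export genes such as ABCA1. Fatty acid synthesis starts from the same pool of acetyl-CoA, which ATP citrate lyase produces from citrate in the cytosol. In proliferating tumor cells these pathways supply membranes and lipid anchors of proteins.

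The arrays were one-colour Agilent arrays with 60901 gene spots for 58201 probes, of which 58193 could be tested. By array, 66.2% to 72.7% of these spots exceeded background clearly, and none was saturated. On si-Control replicate 2, 9712 gene spots in the central part of the array were low (median deviation of the unnormalized log2 signal from the other control arrays -2.19, against -0.06 outside) and were set to missing. The array labelled with the same replicate number in each group lay on the same slide, always in the first column for si-Control and the second for si-C1GALT1-3, so slide position and treatment cannot be told apart. The labels do not say that the samples came from separate cultures, and p-values then measure only the spread between these samples, which may be technical. In such bulk RNA, fewer cells that express a gene and less RNA per cell cannot be told apart. The epithelial markers EPCAM, KRT8, KRT18, KRT19 and CLDN4 exceeded background clearly on all 6 arrays. The markers of leukocytes, fibroblasts and endothelium were read from their brightest probe. Of these, PTPRC, CD14, CD3E, PDGFRB, COL1A1, CDH5 and VWF were also above background on every array with a value, PECAM1 was so on 2 arrays, DCN on 1 and COL1A2 on none. A second PDGFRB probe was not above background on any array (means 3.25 and 3.38), and the 2 VWF probes had -1.03 and 0.45. On the brightest probe of each, none of these named markers was called. PTPRC, a leukocyte surface phosphatase, had 5 probes, of which 2 dimmer ones were called higher, one of them at 1.90 on the log2 scale (adjusted p = 0.150 from limma) and the other not above background on any control array, while the brightest had -0.33. C1GALT1 itself read 12.22, 13.03 and 12.62 (log2 signal) in si-Control and 11.76, 11.98 and 11.13 in si-C1GALT1-3, so the groups did not overlap. The targeted transcript had a log2 fold change of -1.0, a standard error of 0.31, an adjusted p of 0.265 from limma, and did not pass the call defined in the next paragraph.

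In the 32 genes, the knockdown samples differed from the controls at a few single genes, while the median change over the set was small. ACLY, the ATP citrate lyase, was 3.18-fold higher and ABCA1, the cholesterol exporter, was 2.63-fold higher in si-C1GALT1-3 cells. These 2 genes passed the call used throughout, an unadjusted p under 0.01 in limma's moderated test together with a change of at least 2-fold. Among all probes 2.64% passed this call in either direction, 1.65% upward and 0.992% downward. None of the 32 genes was called lower, and by the methods' t-test on the same values none was called lower either. At an unadjusted p under 0.05 in limma, 4 genes were higher (7.37% of all probes) and 1 was lower (6.43% of all probes). After Benjamini-Hochberg adjustment over all probes no gene of the 32 had a p under 0.05 in limma, and 0.0842% of all probes did. Fitted values were above 0 for 19 genes and below 0 for 13, with a median log2 fold change of 0.07, against -0.005 for all probes. For 14 genes the 95% interval of the change lay within 2-fold in both directions, whereas for the other 18 it reached beyond 2-fold.

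**Figure D1:**
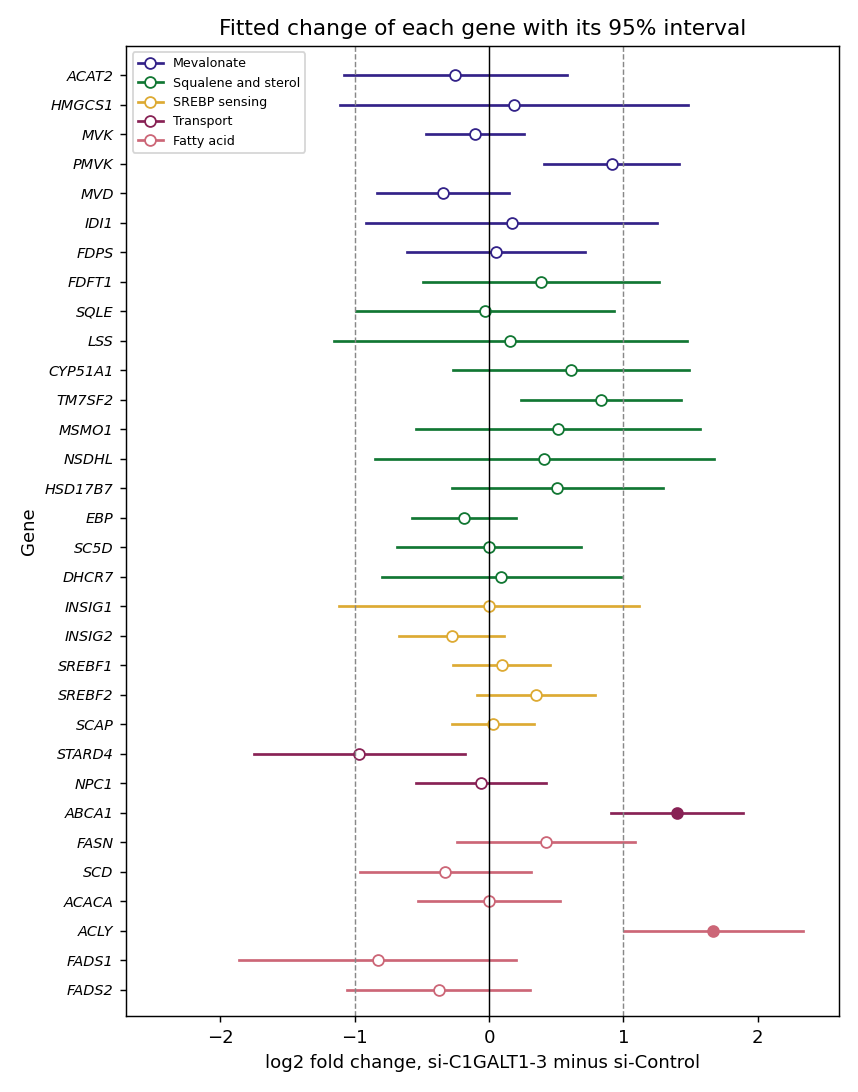
The log2 fold change (si-C1GALT1-3 minus si-Control) of each of the 32 genes is plotted with its 95% interval from limma, coloured by role. Filled points are the 2 called genes, ACLY and ABCA1, dashed lines mark a 2-fold change, and most other intervals cross 0.

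Of the 6 fatty acid genes, ACLY stood apart from the other 5. In si-Control it read 11.74, 12.05 and 12.63 for replicates 1, 2 and 3, and in si-C1GALT1-3 it read 13.55, 13.87 and 14.01. The groups did not overlap, and all 3 slides had a higher knockdown array, by 1.81, 1.82 and 1.38. The log2 fold change of ACLY was 1.67 (standard error 0.27, adjusted p = 0.111 from limma), and it passed the call under every alternative and with any 1 array left out, with values from 1.45 to 1.91. All of these values came from 1 probe with 1 spot on each array. The enzymes downstream of ACLY were not called. ACACA, the acetyl-CoA carboxylase that commits acetyl-CoA to fatty acids, had a log2 fold change of -0.002 (95% interval -0.53 to 0.53), and FASN, the fatty acid synthase, had 0.42 (-0.24 to 1.09). FASN read 13.94, 14.30 and 14.92 in si-Control and 14.71, 14.84 and 14.86 in si-C1GALT1-3, where the highest of the 6 values was a control array. The desaturases SCD, FADS1 and FADS2, which place double bonds in fatty acids, had -0.33, -0.83 and -0.37, with intervals that include 0. FADS1 was the most variable of these, with log2 signals of 8.07, 7.03 and 7.33 in si-Control and of 6.80, 5.96 and 7.19 in si-C1GALT1-3, so that the groups overlapped at 1 array. SCD read 11.75 and 11.87 on the control arrays with a value and 11.47, 11.82 and 11.16 in si-C1GALT1-3. FADS2 read 8.99, 9.07 and 8.74 in si-Control and 8.87, 8.81 and 8.0 in si-C1GALT1-3, with only the last array clearly below the controls. The median of the 6 genes was -0.16, with 2 above 0, but it was 0.03 without si-C1GALT1-3 replicate 3 and 0.13 with the low area of si-Control replicate 2 kept.

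The 3 transport genes went different ways. ABCA1 read 9.32, 8.80 and 8.93 in si-Control and 10.54, 10.53 and 10.18 in si-C1GALT1-3, with no overlap. The fit gave it a log2 fold change of 1.40 with a standard error of 0.20 (limma, adjusted p = 0.0933), and 1.30 to 1.56 with each array left out. A second ABCA1 probe read 6.81, 6.90 and 6.93 in si-Control and 8.02, 8.41 and 8.07 in si-C1GALT1-3. It too was called, at 1.29 on the log2 scale (standard error 0.16, adjusted p = 0.0810 from limma), so both probes of the gene gave the same direction. STARD4, a carrier that moves cholesterol between membranes in the cytosol, was read at 7.70, 8.41 and 7.47 in si-Control and at 6.47, 7.17 and 7.03 in si-C1GALT1-3. Every knockdown array of STARD4 lay below every control array, but its log2 fold change of -0.96 (standard error 0.32, adjusted p = 0.286 from limma) did not pass the call. NPC1, which exports cholesterol from late endosomes, had a log2 fold change of -0.06 (95% interval -0.55 to 0.42) from 10 spots, of which 3 lay in the masked area of si-Control replicate 2.

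**Figure D2:**
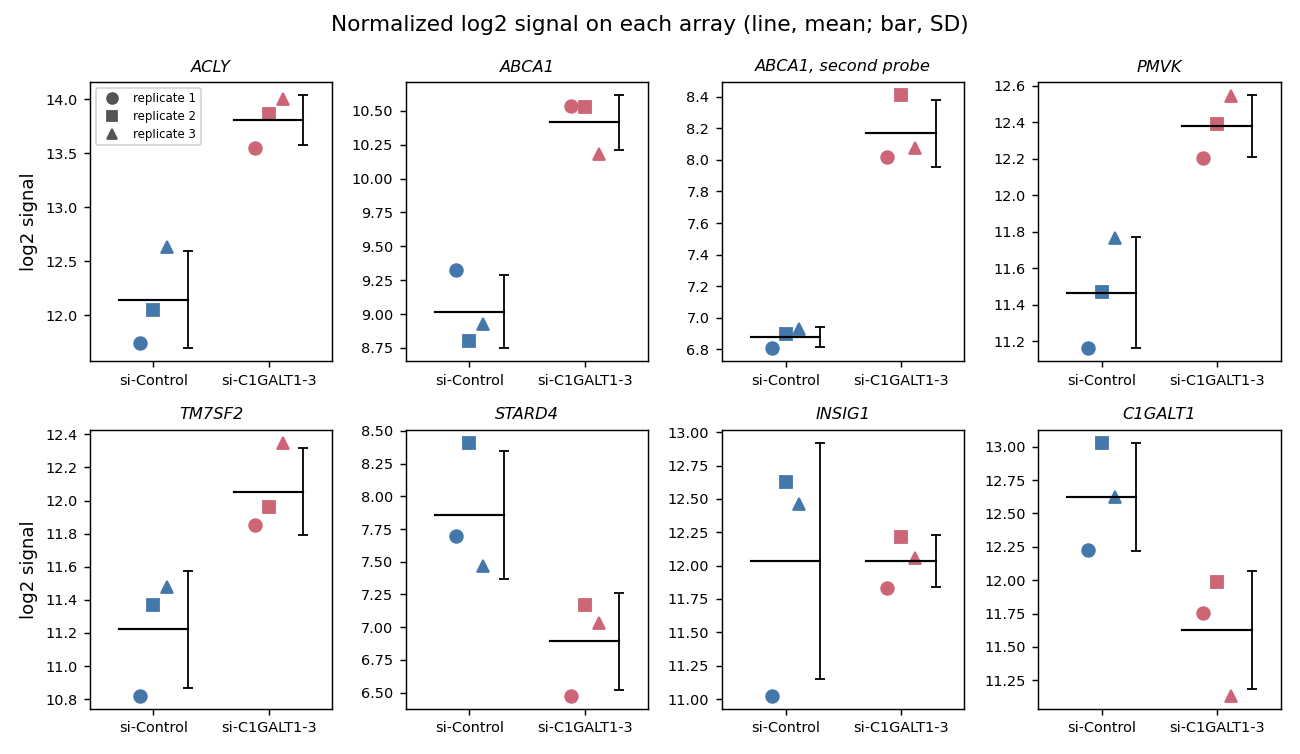
Quantile-normalized log2 signal is shown on each array for ACLY, both ABCA1 probes, PMVK, TM7SF2, STARD4, INSIG1 and C1GALT1, with the group mean as a line, the SD as a bar and the replicate number as the symbol. Each vertical axis has its own range. The groups are separate for every gene shown but INSIG1, whose si-Control array 1 lies at 11.02, below the other 5.

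Among the 7 mevalonate enzymes, PMVK, the phosphomevalonate kinase, came closest to the call. It read 11.16, 11.47 and 11.77 in si-Control and 12.20, 12.39 and 12.54 in si-C1GALT1-3, higher on each of the 3 slides. The log2 fold change of PMVK was 0.91 (standard error 0.20, adjusted p = 0.165 from limma), just under 2-fold, and it passed the call with no normalization between arrays (1.03), without si-Control replicate 3 (1.05) and without si-C1GALT1-3 replicate 1 (1.00). HMGCS1, the HMG-CoA synthase at the entry of the pathway, read 11.44, 13.36 and 12.80 in si-Control and 12.33, 13.07 and 12.76 in si-C1GALT1-3. Here the control arrays spanned a wider range than the knockdown arrays and enclosed them, and the log2 fold change was 0.19 (95% interval -1.11 to 1.48). IDI1, the isopentenyl diphosphate isomerase, also had its lowest and highest values among the controls, with 11.69, 13.34 and 12.91 in si-Control and 12.63, 12.82 and 12.99 in si-C1GALT1-3, and a log2 fold change of 0.17. ACAT2, the cytosolic thiolase that forms acetoacetyl-CoA, had -0.25, MVK, the mevalonate kinase, had -0.10, and FDPS, the farnesyl diphosphate synthase, had 0.05. MVD, the decarboxylase that makes isopentenyl diphosphate, had 2 control values, 12.20 and 12.58, both above the knockdown values of 12.02, 11.98 and 12.14, and a log2 fold change of -0.34 (95% interval -0.84 to 0.15).

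Of the 11 enzymes of squalene and sterol synthesis, 9 had fitted values above 0 and none was called. TM7SF2, a sterol reductase, read 10.82, 11.37 and 11.48 in si-Control and 11.85, 11.96 and 12.35 in si-C1GALT1-3. With all knockdown arrays above all control arrays, the fitted difference was 0.83 with a standard error of 0.24 (limma, adjusted p = 0.243). CYP51A1, the lanosterol demethylase, had 0.61, MSMO1, the methylsterol monooxygenase, had 0.51, and NSDHL, the sterol decarboxylating dehydrogenase, had 0.41. FDFT1, the squalene synthase, had 0.38, SQLE, the squalene epoxidase, had -0.03, and LSS, the lanosterol synthase, had 0.16. LSS read 10.43 and 11.97 on the control arrays with a value and 11.15, 11.25 and 11.66 in si-C1GALT1-3, between the controls. CYP51A1 read 11.11, 12.50 and 11.76 in si-Control and 12.43, 12.42 and 12.34 in si-C1GALT1-3, and MSMO1 read 11.54, 13.20 and 12.44 against 12.79, 13.11 and 12.82. In both, the knockdown arrays lay close together and one control array was above them. The late enzymes EBP, SC5D and DHCR7 had -0.19, 0.0001 and 0.09. HSD17B7, a ketosteroid reductase, was read by 3 probes, with 0.47, 0.51 and 0.84, and its near-identical pseudogene may share their signal. The median of the 11 enzymes was 0.38, and this value rested on 1 array, as the next comparison shows.

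si-Control replicate 1 was low for most mevalonate and sterol enzymes. Of the 15 enzymes with values on all 6 arrays, 12 (80.0%) had their lowest value there, whereas 19.7% of all probes did. Over all 18 enzymes the median difference of this array from the other control arrays was -0.98 on the log2 scale, against -0.01 for all probes, and 9 of the 18 were at least 2-fold lower there, against 5.10% of probes. HMGCS1 was lower by 1.64, LSS by 1.53, IDI1 and NSDHL by 1.44 and MSMO1 by 1.28, while MVK was 0.21 higher. Outside these enzymes INSIG1, a retention protein of SCAP, differed by -1.52, whereas INSIG2, SREBF1, SREBF2 and SCAP differed by 0.005, 0.001, 0.21 and 0.03. The knockdown array of the same slide was the lowest of its group for 11 of the 15 enzymes (73.3%, against 32.3% of all probes), with a smaller median difference of -0.21. si-Control replicate 1 did not stand apart in its share of spots above background, 70.8%. Its median log2 signal before normalization, 8.18, was the highest of the 6 arrays, and the lowest was 7.26 on si-Control replicate 3. It had 211 spots flagged as outliers, against 424 on si-Control replicate 2 and 100 on si-Control replicate 3. What set the low values of this array was not tested.

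**Figure D3:**
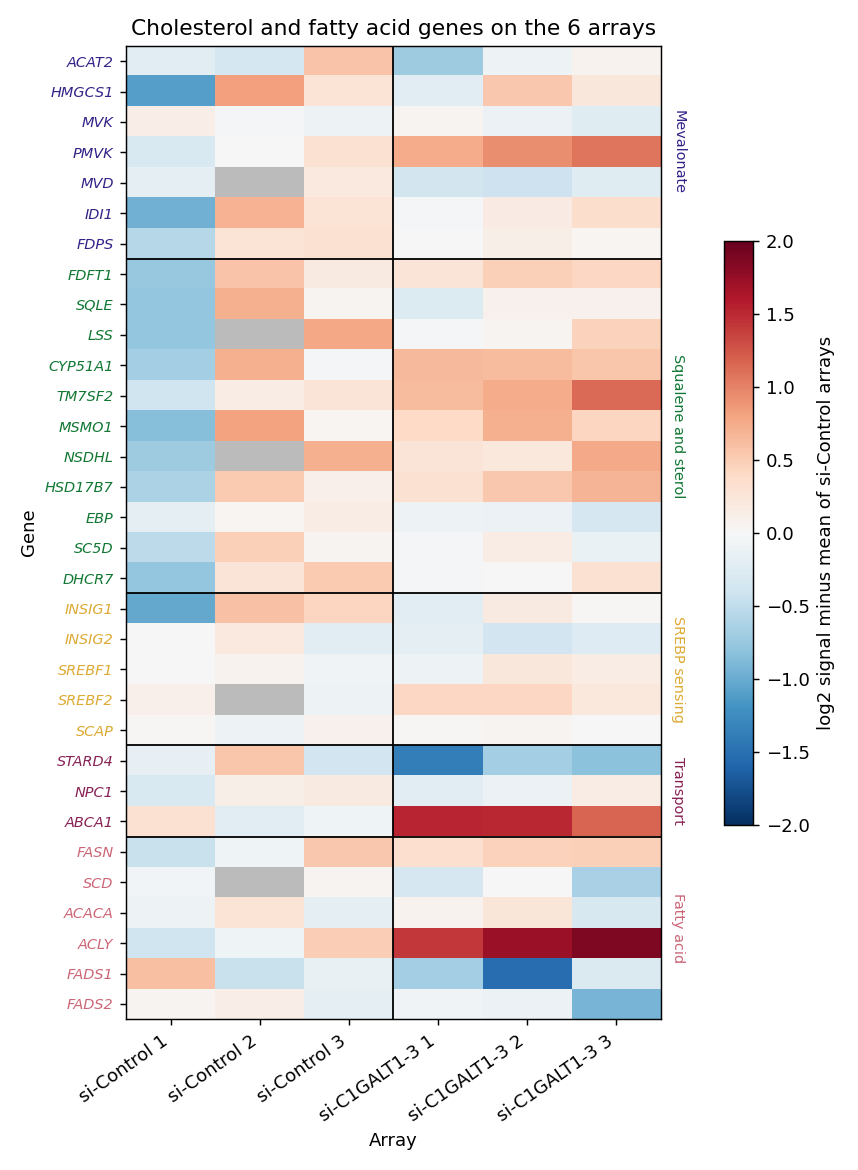
For each of the 32 genes (rows, grouped by role) and each array (columns), colour gives the log2 signal minus the mean of the si-Control arrays with a value, and grey marks the 5 masked values. The blue block in the first column is the low reading of mevalonate and sterol enzymes and INSIG1 on si-Control replicate 1, and the red rows are ACLY and ABCA1.

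The difference between the groups was not the same on each slide for these enzymes, which is given as a description. On the slide of replicate 1 the median difference between si-C1GALT1-3 and si-Control was 0.81, with 15 of 18 enzymes higher in the knockdown. The slide of replicate 2 gave -0.10, with 4 of 15 higher, and that of replicate 3 gave -0.005, with 9 of 18 higher. Without si-Control replicate 1 the median of the 11 squalene and sterol enzymes was -0.26 in place of 0.38, with 5 above 0, and that of the 7 mevalonate enzymes was -0.31 in place of 0.05, with 1 above 0. That one was PMVK (0.76). This fit kept si-C1GALT1-3 replicate 1 of the same slide, the lowest of its group for 11 of the 15 enzymes with all values. INSIG1, whose log2 fold change was -0.0007 (95% interval -1.12 to 1.12) on all arrays, had -0.51 in that fit. ACLY and ABCA1 passed the call without this array as well, with 1.45 and 1.56.

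**Figure D4:**
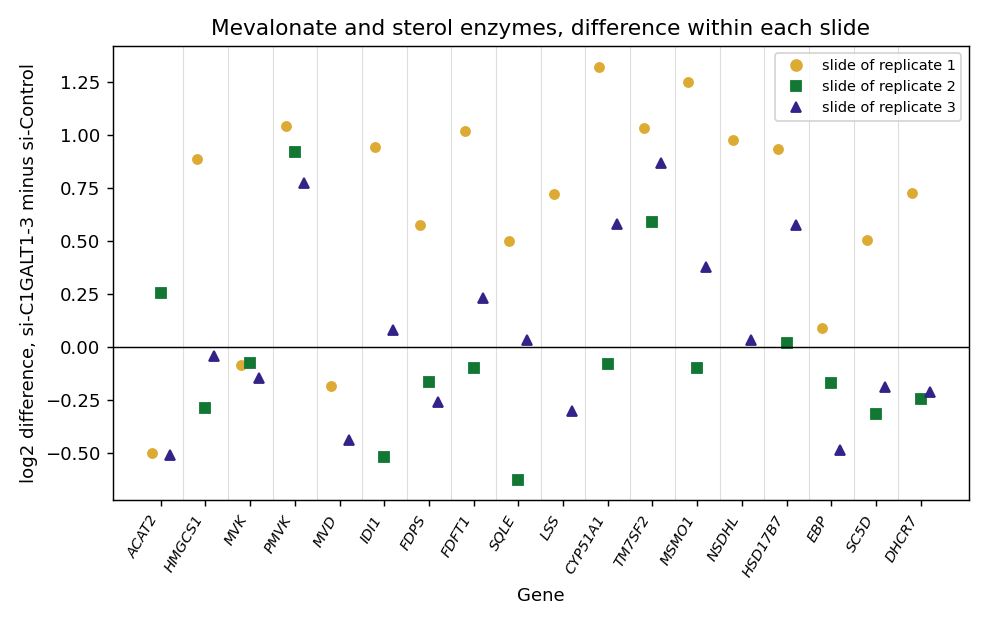
The difference in log2 signal between the si-C1GALT1-3 and the si-Control array of a slide is plotted for the 18 mevalonate and sterol enzymes, with a symbol for each slide. Circles (replicate 1) lie above 0 for 15 enzymes, while squares and triangles (replicates 2 and 3) scatter around it, and PMVK, TM7SF2 and HSD17B7 are above 0 on all slides.

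None of the 5 sensing genes was called. SREBF2, which encodes the SREBP that favours cholesterol genes, had control values of 13.14 and 12.93 and knockdown values of 13.45, 13.44 and 13.25. These groups did not overlap, and the log2 fold change was 0.35 (95% interval -0.09 to 0.79). SREBF1, whose product favours fatty acid genes, had 0.09 (-0.27 to 0.45), and SCAP had 0.03 (-0.28 to 0.33). INSIG2 had -0.28 on the brighter probe and -0.51 on the other, the second with an adjusted p of 0.218 in limma. Over the 32 genes, the groups were separate with the knockdown above for 5 (PMVK, TM7SF2, SREBF2, ACLY and ABCA1, 11.0% of all probes) and with the knockdown below for 2 (MVD and STARD4, 10.4% of all probes). SREBF2 and MVD had 2 control values each, so separation is easier to reach for them, and the shares mix such probes with complete ones.

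The mask of si-Control replicate 2 covered spots of 6 genes, of which 5 had their only spot in the low area. With that area kept, SREBF2 read 4.06 on this array and its log2 fold change was 3.33 in place of 0.35. MVD read 7.55 there and had 1.25 in place of -0.34, and SCD read 8.93 and had 0.61 in place of -0.33. LSS had 2.79 in place of 0.16, and NSDHL had 1.22 in place of 0.41. NPC1 had 0.59 in place of -0.06, which is also the median of the 3 transport genes in each case. None of these 6 genes passed the call with or without the mask. Genes with no spot in the area moved as well, since normalization was run again. With the area kept, FADS1 had -1.03 in place of -0.83, STARD4 -1.16 in place of -0.96, and ABCA1 1.24 in place of 1.40.

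Promoter sequence was available for 28 of the 32 genes in RefSeq windows of GRCh38.p14 that run from 250 bases before the transcription start to 50 bases after it. ACAT2, FDFT1, SQLE and FASN had no entry. Where a gene had several windows, only the first listed was read. Only exact matches were counted, so variant forms and sites outside the window were not looked for. The sterol response element core TCACNCCAC was found, on either strand, in 1 window, that of SREBF2 (3.57%, against 1.15% of 27305 genes). CCAAT, the letters bound by NF-Y, an SREBP partner, occurred in 17 windows (60.7%, against 35.7%), and the GC box GGGCGG, read by SP1, in 26 (92.9%, against 44.6%). The comparison shares cover every gene with a window, detected here or not, whereas all 32 genes were above background. Shares among detected genes alone were not computed, so the gap cannot be read as particular to these genes. The bases before the start are printed for 3 genes that were low together on si-Control replicate 1 (HMGCS1, INSIG1, NSDHL), for the one with the sterol core (SREBF2) and for the 2 called genes (ACLY, ABCA1). Capitals mark these 3 motifs on either strand, so ATTGG and CCGCCC are their reverse forms. The stretches lie at chr5:43313413-43313662 (minus strand), chr7:155297628-155297877 (plus strand), chrX:152830813-152831062 (plus strand), chr22:41832855-41833104 (plus strand), chr17:41919023-41919272 (minus strand) and chr9:104928156-104928405 (minus strand).
HMGCS1: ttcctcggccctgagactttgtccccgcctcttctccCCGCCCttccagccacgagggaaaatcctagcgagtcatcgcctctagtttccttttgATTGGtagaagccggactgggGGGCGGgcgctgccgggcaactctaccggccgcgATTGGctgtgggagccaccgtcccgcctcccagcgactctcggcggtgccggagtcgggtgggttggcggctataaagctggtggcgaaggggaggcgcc
INSIG1: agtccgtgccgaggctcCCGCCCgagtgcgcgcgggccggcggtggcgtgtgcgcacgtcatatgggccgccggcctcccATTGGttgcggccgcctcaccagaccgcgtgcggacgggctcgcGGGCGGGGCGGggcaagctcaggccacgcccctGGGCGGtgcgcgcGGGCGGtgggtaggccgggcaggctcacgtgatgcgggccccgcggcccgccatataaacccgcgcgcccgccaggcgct
NSDHL: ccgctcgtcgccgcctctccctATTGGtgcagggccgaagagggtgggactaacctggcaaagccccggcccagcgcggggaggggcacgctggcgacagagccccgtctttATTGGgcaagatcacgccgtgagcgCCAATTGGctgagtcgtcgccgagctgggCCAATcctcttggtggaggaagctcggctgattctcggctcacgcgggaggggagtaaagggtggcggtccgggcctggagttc
SREBF2: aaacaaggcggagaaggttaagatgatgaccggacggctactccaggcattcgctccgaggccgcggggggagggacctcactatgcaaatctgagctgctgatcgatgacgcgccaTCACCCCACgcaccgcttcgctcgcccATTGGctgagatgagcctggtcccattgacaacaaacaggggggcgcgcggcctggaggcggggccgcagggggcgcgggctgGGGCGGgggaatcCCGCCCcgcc
ACLY: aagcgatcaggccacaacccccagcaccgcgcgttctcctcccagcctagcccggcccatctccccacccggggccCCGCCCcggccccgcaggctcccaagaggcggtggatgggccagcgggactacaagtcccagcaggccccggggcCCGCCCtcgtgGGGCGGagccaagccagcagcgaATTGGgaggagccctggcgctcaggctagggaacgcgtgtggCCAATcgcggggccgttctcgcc
ABCA1: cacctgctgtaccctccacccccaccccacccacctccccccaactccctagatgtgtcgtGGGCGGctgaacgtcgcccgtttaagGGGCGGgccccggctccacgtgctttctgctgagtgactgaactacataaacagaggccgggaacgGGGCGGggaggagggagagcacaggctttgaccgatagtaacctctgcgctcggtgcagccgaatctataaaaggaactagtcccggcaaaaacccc
HMGCS1 and ACLY each held 2 CCAAT matches, NSDHL held 5 and no GC box, and ABCA1 held 3 GC boxes and no CCAAT. A pair of GC boxes in INSIG1 and a pair of CCAAT matches in NSDHL overlapped. A match describes these letters only.

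Other genes of sterol and fatty acid metabolism were read from lists of pathway members. Of all probes, 1.65% were called higher and 0.992% lower by limma. At an unadjusted p under 0.05 in limma, 7.37% were higher and 6.43% lower. Of 16 other synthesis enzymes, 15 were measured and none was called by limma or by the methods' t-test (median log2 fold change 0.05), with 1 higher and 1 lower at an unadjusted p under 0.05 in limma. At the ends of this list were LBR, a sterol reductase of the nuclear envelope, with -0.40, and RABGGTA, a protein prenyltransferase subunit, with 0.60. Of 16 further genes of SREBP processing and sterol sensing none was called by either test (median 0.13), with 2 higher and 2 lower at that p. NFYB, a subunit of NF-Y, had -0.46 and NR1H3, an LXR, had 0.65 from 2 control values. The 28 genes of sterol uptake, esterification and oxysterols had a median of 0.08, with 2 called higher and 0 lower by limma, where 6 were higher and 1 was lower at an unadjusted p under 0.05. None of the 28 passed by the methods' t-test. MYLIP, a ubiquitin ligase that removes lipoprotein receptors, read 9.86, 10.23 and 9.70 in si-Control and 10.77, 11.43 and 11.02 in si-C1GALT1-3. It was higher by 1.14 on the log2 scale (standard error 0.24, adjusted p = 0.152 from limma). GRAMD1B, a sterol transporter at membrane contacts, was not well above background on any control array and was so on 2 knockdown arrays. Its measured means were 4.03 and 5.76 (adjusted p = 0.208 from limma). With the lowest signal above background in place of the control values, it was 1.22-fold higher. The knockdown mean includes the array not above background, so this fold is not a firm lower limit. GRAMD1B lost the call without si-Control replicate 1 or 3, without si-C1GALT1-3 replicate 1 or 2, with the low area kept, with no normalization, normexp, or a trend and robust prior, and in the series table. SOAT1, which esterifies cholesterol, had the lowest value (-1.30) and was not called, but it passed the call downward with the 75th percentile (-1.35), no normalization (-1.22), normexp (-1.04), dim probes left out (-1.30) and without si-Control replicate 1 (-1.67). GRAMD1C, with 1.40, was not called.

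Fatty acid oxidation, the opposite route, had the highest median of these lists, 0.40 over 25 genes, with 19 above 0. Of the 22437 named genes, 11763 were above 0 and 10674 below. By limma 2 of the 25 were called higher and 0 lower (1.65% and 0.992% of all probes). At an unadjusted p under 0.05 in limma, 6 were higher and 1 was lower (7.37% and 6.43% of all probes). By the methods' t-test 1 was called higher, CPT1B. CPT1B and CPT2 are carnitine palmitoyltransferases, which carry fatty acids into mitochondria. CPT1B read 9.79, 10.39 and 9.80 in si-Control and 11.19, 11.15 and 10.93 in si-C1GALT1-3, a log2 fold change of 1.10 (standard error 0.21, adjusted p = 0.140 from limma). CPT2 read 9.68, 10.24 and 9.36 against 11.27, 11.10 and 10.55, a log2 fold change of 1.21 (standard error 0.30, adjusted p = 0.199 from limma). Both had groups that did not overlap. PDK4, a kinase that restrains glucose oxidation, was at the lower end with -0.74. The 30 genes of fatty acid supply, elongation and activation had a median of -0.11, with 21 below 0. None was called by limma or the methods' t-test, and 1 was higher and 3 were lower at an unadjusted p under 0.05 in limma, with HACD1, an elongation dehydratase, at -1.13 and OXSM, a mitochondrial fatty acid synthase, at 0.62. With the replicate as a block, GRAMD1C (1.40) and HACD1 (-1.13) passed the call, as did ELOVL7, a fatty acid elongase (-1.03), and OSBPL8, an oxysterol-binding family member (-1.51), the latter with no si-Control value on slide 2. HACD1 also passed with the 75th percentile, normexp, dim probes left out and without si-Control replicate 3 (-1.43). The oxidation list had 0 calls without si-C1GALT1-3 replicate 1 or 2 or with the low area kept or from the series table, and 3 without si-Control replicate 2. With no normalization between arrays neither CPT1B (1.23) nor CPT2 (1.35) passed. MYLIP, CPT1B and CPT2 had 0.97 to 1.30, 0.99 to 1.30 and 1.00 to 1.46 with each array left out, and each lost the call without si-Control replicate 3 and without si-C1GALT1-3 replicate 2. MYLIP also lost it without si-Control replicate 1 and si-C1GALT1-3 replicate 3, CPT1B without si-C1GALT1-3 replicate 1, and CPT2 without replicate 1 of either group. With the low area kept (1.03), with no normalization (1.27) and from the series table (1.15), MYLIP was not called either. Without si-Control replicate 1 the median of the oxidation list was 0.24.

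**Figure D5:**
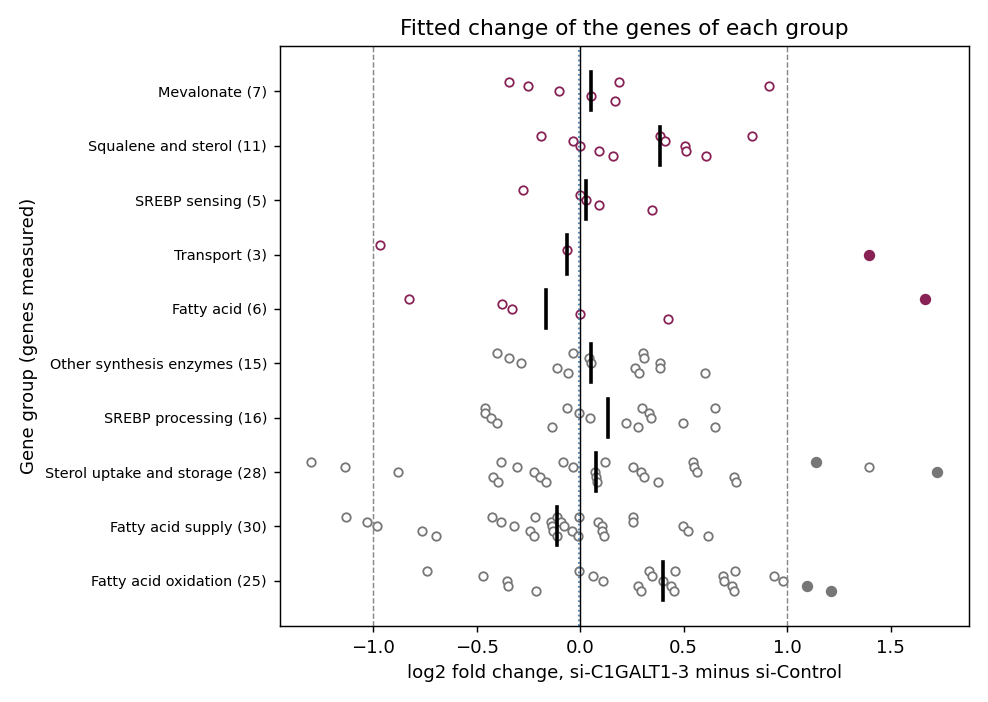
Each point is the log2 fold change (si-C1GALT1-3 minus si-Control) of a gene, by group, with the 32 genes in the upper 5 rows. Filled points passed the call, black bars are group medians, dashed lines mark 2-fold and the dotted line is the median of all probes, -0.005. The filled points are ACLY, ABCA1, MYLIP, GRAMD1B (a fitted value above a background signal), CPT1B and CPT2.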

How the data were processed

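The authors deposited the output of Agilent Feature Extraction, version 10.5.1.1, for SurePrint G3 Human GE v3 arrays, in which each spot has a fluorescence intensity corrected for background. A series table deposited by the authors holds background-subtracted intensity of the same spots. The methods name quantile normalization and limma, which come after these files.

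Here the processed intensity was log2-transformed, control spots were left out, spots flagged as outliers and the low area of si-Control replicate 2 (array rows 113 to 288, columns 59 to 115) were treated as missing, quantile normalization was run over all 6 arrays, and spots of a probe were averaged. Groups were compared with limma 3.58.1 in R 4.3.3, with Benjamini-Hochberg adjustment over 58193 probes. The test was checked on simulated arrays. RefSeq accessions named 31104 of the 58201 probes through a table of GRCh38.p14. Coordinates are given for promoter windows alone, because the array annotation rests on a different build.

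The 32 genes, the other lists and the tests were chosen with earlier results of these data known. Named in the text are all 32 genes, C1GALT1, the cell type markers (a leukocyte marker is not reported here) and, of each other list, the called genes and the largest rise and fall among genes well above background in a group. ELOVL7 and OSBPL8 were named after their values were seen.

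Arrays with the same replicate number share a slide, and their deviations from the group means correlated at 0.20, 0.21 and 0.33 over 48794 probes, so the numbers were taken as pairs and the block was an alternative. The other alternatives were no mask, scaling to the 75th percentile, no normalization, normexp with an offset of 50 on the median spot signal (the mean is not used here), dim probes left out, a trend and robust prior, the methods' t-test, flagged spots kept, the authors' series table floored at 10, the median over probes of a gene, and each array left out. The fold where no control array was above background was taken against the lowest signal above background on each array. The number of arrays limits the precision.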

Additional observations from a re-analysis of the deposited data

How the results depend on the processing

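ACLY and ABCA1 were called higher, and none of the 32 genes lower, under every alternative run. PMVK joined them in 3 of these. The median log2 fold change of the 32 genes was 0.01 to 0.14 over the alternatives on all arrays and -0.25 (without si-Control replicate 1) to 0.23 (without si-Control replicate 2) with each array left out. Scaling to the 75th percentile moved the median of all probes to -0.11, from -0.005, and the median of the mevalonate enzymes to -0.04.

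Of all probes, 1538 passed the call, but 915 did with normexp and 896 with the methods' t-test, and 1126 to 1781 with each array left out. The share of calls that were higher was 62.5%, against 72.6% with no normalization between arrays and 40.2% with the low area kept. An adjusted p under 0.05 in limma was reached by 49 probes, and the smallest was 0.0499. It was reached by 546 with dim probes left out, 429 with normexp, 74 from the series table and 31 with the 75th percentile. The count was 0 with the replicate block, a trend and robust prior, flagged spots kept, the low area kept or any array left out. By the methods' t-test it was 2. With the replicate block, 1604 probes passed the call, and of the 32 genes the same 2 did (both higher). Among the other pathway lists, it changed the call of GRAMD1C, HACD1, ELOVL7 and OSBPL8 alone. C1GALT1 passed the call with dim probes left out and had a log2 fold change of -1.20 to -0.75 with each array left out. The cause of these differences was not tested. All 32 genes were above background, and 5 of them had 2 control values.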
